A study of Mus musculus with 6 samples.

Results

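The genes described here are the mouse RING-type ubiquitin ligases and their relatives whose names are Rnf or Trim followed by a number. They were chosen by name among the protein-coding genes of GENCODE M21 (GRCm38), leaving out Rnf31, Rnf128 and Rnf144a. The count table held 149 of them among 48440 genes, 81 RNF and 68 TRIM genes. RNA was sequenced from primary CD4+ T cells taken from spleen and lymph nodes of wildtype mice, activated for 3 days with plate-bound antibodies to CD3 and CD28 and then grown for 5 days in interleukin 2. Both groups share that history. The unstimulated group (3 libraries) was left at rest, and the stimulated group (3 libraries) met antibodies to CD3 and CD28 again for 4 hours, so the contrast asks which ligase transcripts shift within hours of renewed receptor signalling in cells that were activated before. The labels name replicates but not whether these came from separate mice or cultures, so that p-values measure only the spread between these libraries.

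A RING ligase holds a zinc-binding RING domain that docks a ubiquitin-loaded E2 enzyme and passes the ubiquitin straight to a substrate. The RNF name marks a RING finger and little else, so RNF proteins sit in the nucleus, the cytosol, the endoplasmic reticulum and endosomes. TRIM proteins carry a RING, B-box zinc fingers and a coiled coil in a row, and many end in a SPRY domain that picks the target. A few TRIM proteins, among them those of Trim14, Trim16, Trim29, Trim44 and Trim66, lack the RING. In lymphocytes the families are known for control of antigen receptor signalling, of chromatin and of interferon responses to nucleic acids.

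The first 4 sequences come from the TRIM cluster of chromosome 7, where Trim30a and Trim30d rose together. Trim12c and Trim5, whose stretches shown here are near-copies, moved in opposite directions. Bases outside the stretches were not compared. Trim26 of chromosome 17 is shown because its stretch holds the same motif and it did not pass the test. Each stretch lies just upstream of a RefSeq start site (RefSeq, GRCm38.p6) and is written 5′ to 3′ on the strand of the gene. Capitals mark a match to the core of the interferon-stimulated response element, read here as GAAA, any 2 bases and GAAA again, which on the other strand is TTTC, any 2 bases and TTTC.
Trim30a (chr7:104465194-104465269, minus strand): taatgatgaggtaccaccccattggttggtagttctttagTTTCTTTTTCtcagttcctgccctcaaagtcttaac
Trim30d (chr7:104507851-104507930, minus strand): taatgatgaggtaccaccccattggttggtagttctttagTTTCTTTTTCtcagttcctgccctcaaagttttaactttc
Trim12c (chr7:104353350-104353418, minus strand): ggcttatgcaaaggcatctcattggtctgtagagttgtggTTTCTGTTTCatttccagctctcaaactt
Trim5 (chr7:104288116-104288195, minus strand): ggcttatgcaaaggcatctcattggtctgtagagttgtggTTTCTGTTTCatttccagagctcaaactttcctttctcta
Trim26 (chr17:36836946-36837031, plus strand): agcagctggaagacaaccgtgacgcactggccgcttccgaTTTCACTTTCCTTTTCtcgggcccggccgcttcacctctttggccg
Aligned without gaps at the capitals, the Trim30a and Trim30d stretches were identical at 75 of 76 bases. The Trim12c and Trim5 stretches were identical at 67 of 69. Trim30a and Trim5 shared 38 of 76. In RefSeq windows of 300 bases (250 before and 50 after a start site), searched on both strands, the motif stood in 3.44% of all 32851 windows and in 9.52% of the 147 windows of ligase genes. Counted by gene, it stood in the windows of 3.99% of all genes with a window and of 13 of the 115 ligase genes with a window. Among 12 of those 13 that had enough reads for a test, 7 rose and 3 fell, and several of them are near-copies of each other. Over all 376 tested genes with the motif, 43.1% rose and 31.6% fell, beside 38.4% and 39.1% of all tested genes. A match describes letters and is not a binding site. The motif shown was chosen after the values had been seen. AP-1, gamma-activated, E-box and NF-kB sites were searched too, and stood in 16, 15, 8 and 4 of the 147 ligase windows. Over all windows their shares were 7.81%, 8.30%, 7.15% and 1.47%. Of 7 tested ligase genes with an AP-1 site, 5 rose and 2 fell. Windows of Trim30a and Trim30d also hold an AP-1 match, just after the start site.

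The libraries held 29897720 to 30252923 counted reads, and 3 reads corresponded to 0.0943 to 0.106 CPM (reads scaled to a common library size with TMM). The receptor-induced genes Il2, Cd69, Egr2 and Nr4a1 rose by 9.04, 5.22, 6.50 and 5.40 on the log2 scale, with the change of Egr2 being 7.15 without unstimulated replicate 1. All 8 CD4 T cell markers were abundant at rest and fell, with a sum of 4372 to 4614 CPM at rest and 2080.1 to 2159 CPM after stimulation. B cell markers, all 8 detected, summed to 1406 to 2862 CPM at rest and 731 to 1282 CPM after stimulation, and most of that was Ighm. The 8 markers of CD8 T and NK cells summed to 37.7 to 46.8 and 82.9 to 138 CPM, with Ncr1, Klra8 and Klre1 at 0 in most libraries. Without Eomes, which went from 8.03 to 82.6 CPM on average, the sum was 27.2 to 38.7 CPM at rest and 22.9 to 26.5 CPM after stimulation. Of the 4 markers of this list that were tested, 2 rose, Eomes and Cd8a (3.83 to 8.22 CPM on average). Klrd1 (11.1 to 1.72 CPM) and Cd8b1 (18.6 to 14.7 CPM) fell. Myeloid markers summed to 7.20 to 9.01 CPM at rest and 3.72 to 3.90 CPM after stimulation. Erythroid markers summed to 0.923 to 2.20 and 1.61 to 2.45 CPM, with Hba-a2 at 0. The part of these cells in the changes below was not tested, and in bulk RNA fewer cells of a type and less RNA per cell cannot be told apart.

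Among the stimulated libraries, replicate 1 stood apart in the interferon programme. A list of 24 interferon-stimulated genes summed to 5908 CPM in it, against 3331 and 3956 CPM in stimulated replicates 2 and 3, and to 1322, 1024 and 956 CPM at rest. Of these genes, 18 (75%) lay more than 1.3 times above both other stimulated libraries there, as did 12 of the 95 ligase genes with a mean of at least 1 CPM, or 12.6%, against 3.94% of all 11586 tested genes at that level. The limit of 1.3 was chosen after the values were seen, and the part of this library's interferon programme in its ligase levels was not tested. For these 12 genes the change is given with and without this library. Unstimulated replicate 1 was also above the mean of the other resting libraries for most of them. The ratio was 1.13 to 1.41 for Trim14, Trim12c, Trim21, Rnf213, Trim25, Trim56 and Trim30d, and 4.04 for Trim30c, near the floor at rest. For Trim30a, Trim34a, Rnf122 and Rnf144b it was 0.735 to 1.00. A fit without stimulated replicate 1 alone still holds unstimulated replicate 1.

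Of the 149 genes, 105 had enough reads to test, 63 RNF and 42 TRIM. By the quasi-likelihood test of edgeR, at a Benjamini-Hochberg adjusted p of 0.05, 38 rose, 45 fell and 22 did not pass. Together 83 of 105 (79%) were called, beside 77.5% of all 13314 tested genes, so the share of ligase genes that moved was near that of the transcriptome. Rises alone took 36.2% (38.4% over all genes) and falls 42.9% (39.1%). The median log2 fold change was -0.05 over the ligases and -0.04 over all genes. The groups did not overlap for 88 of the 105 (83.8%, beside 79.8% of all genes). Tested against a 2-fold change with glmTreat, 17 rose (16.2%, beside 17.4% of all genes) and 17 fell (16.2%, beside 18.2%). By family, 21 RNF genes rose and 28 fell, while 17 TRIM genes rose and 17 fell. Beyond 2-fold, 9 RNF genes rose and 13 fell, and 8 TRIM genes rose and 4 fell. The difference between the families was not tested. The lists below were not tested as sets either, and their counts stand beside 38.4% rises and 39.1% falls over all tested genes. Ranges of adjusted p below cover every alternative that tested the gene. Among the alternatives is a block for replicate number, whose added calls are listed in the closing section. A filter of at least 1 CPM in 3 libraries left Trim2, Trim7, Trim34b, Trim47 and Trim71 untested, so their calls were lost there.

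**Figure D1:**
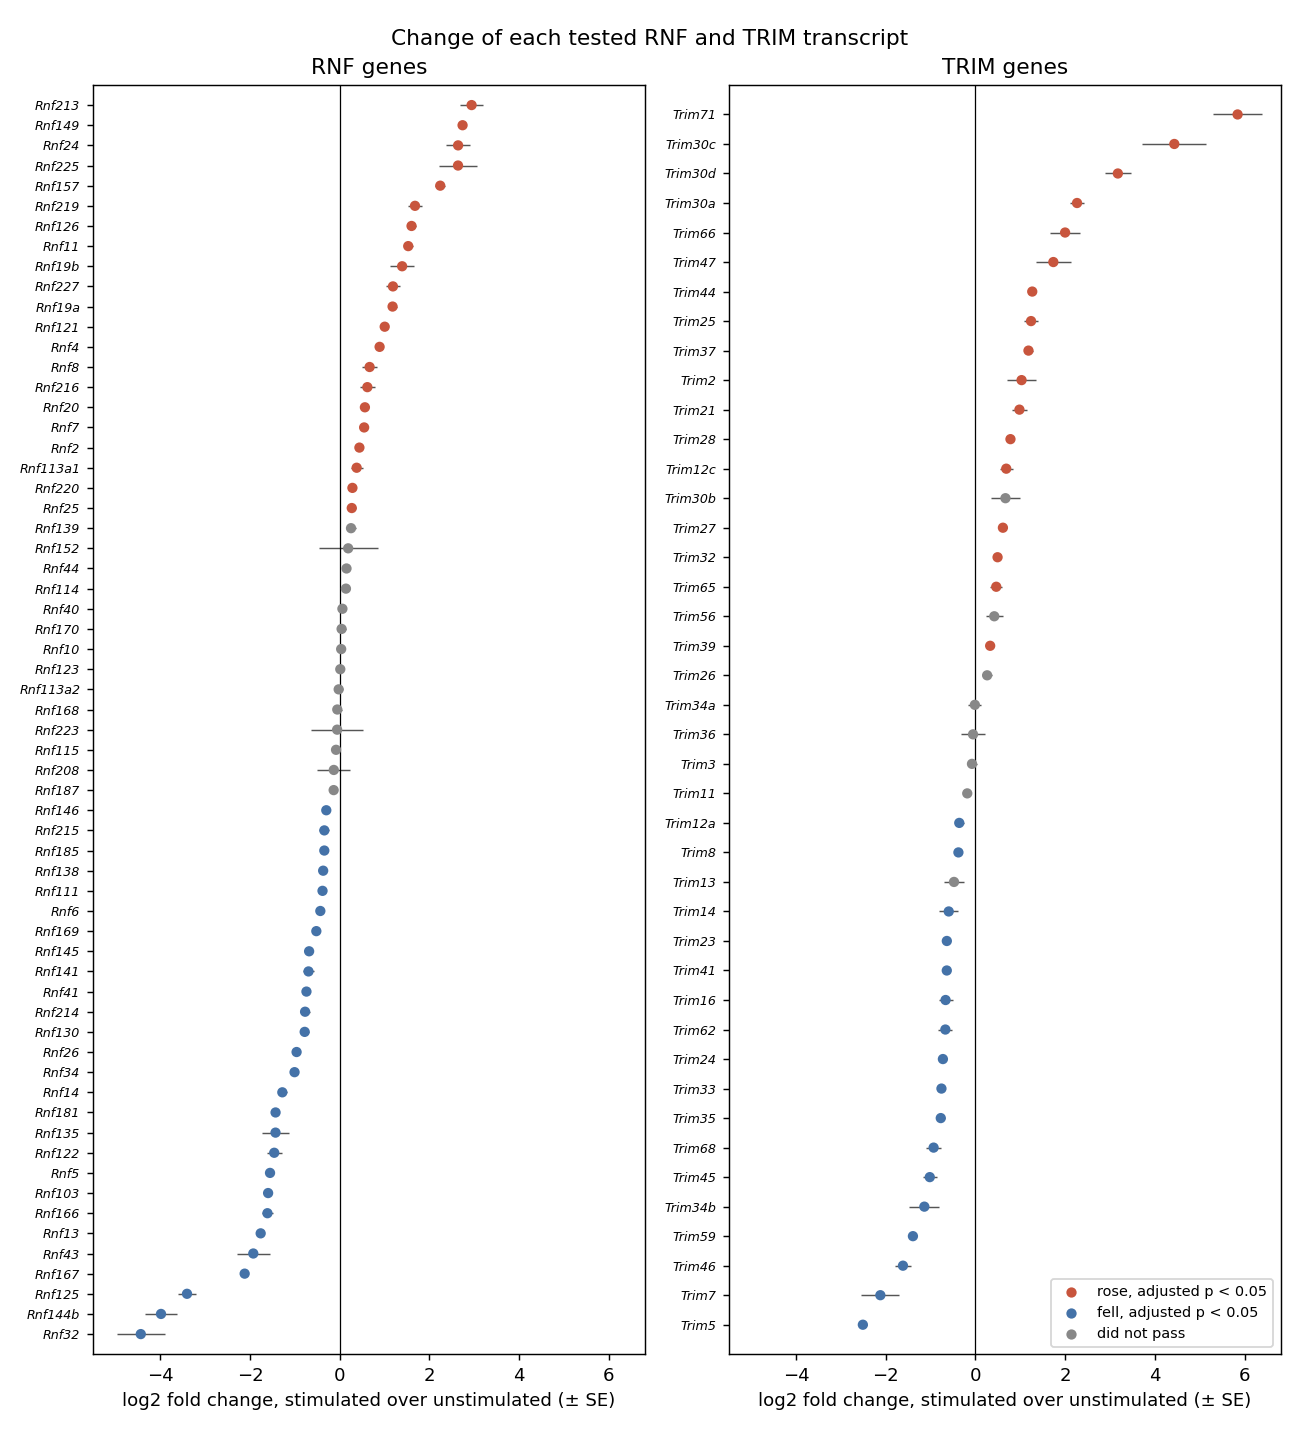
Log2 fold change (x axis, stimulated over unstimulated cells, bars ± SE) of 62 RNF and 42 TRIM genes tested (y axis, ordered by change). The 38 red points rose, the 44 blue points fell and the 22 grey points did not pass edgeR's test, 1 called RNF fall is not drawn, and both families spread to either side of 0.

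The other 44 genes, 18 RNF and 26 TRIM, were too low to test. No read in any library fell on 17 of them, which allows up to 3 reads or about 0.106 CPM per library, and none of the others passed 0.456 CPM in a library. Among the silent or nearly silent genes were all 6 of the erythroid and muscle TRIM genes (Trim10, Trim54, Trim55, Trim58, Trim63 and Trim72), the testis-type transmembrane ligases Rnf133 and Rnf148, and Trim38, which had no read. At the other end, levels were compared per kilobase of exon. Trim28, a co-repressor for zinc finger repressors, stood at 72.2 ± 2.96 before and 124 ± 4.20 after stimulation (CPM per kb, mean ± SD, n = 3). Rnf187, a co-activator of AP-1, stood at 86.6 ± 3.32 before and 79.0 ± 3.59 after, and Rnf114 at 73.9 ± 4.86 before and 81.5 ± 8.60 after. Trim30a (23.995 ± 0.0382 before and 115 ± 28.5 after) and Rnf19b (37.9 ± 15.4 before and 99.5 ± 8.85 after) were lower at rest and rose to the levels of these. Before stimulation the 3 highest of these, Rnf187, Rnf114 and Trim28, lay within 72.2 to 86.6 CPM per kb, with Rnf114 and Trim28 not apart beyond their spread.

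**Figure D2:**
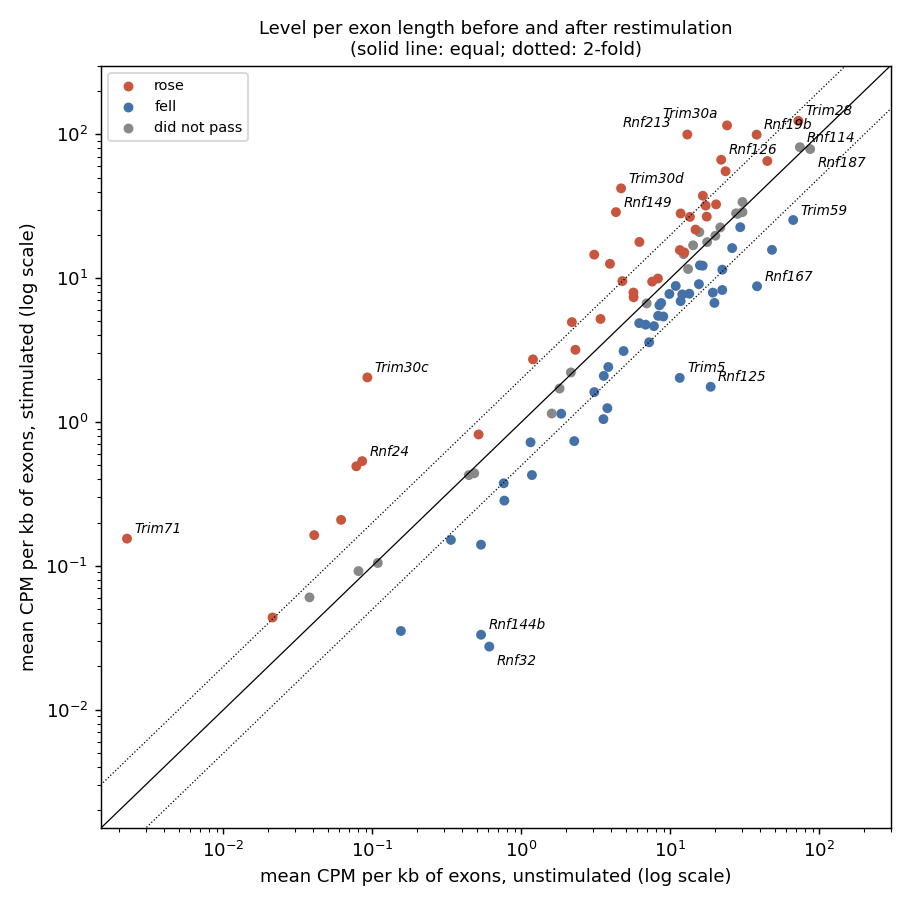
Mean level in CPM per kilobase of exons before (x axis) and after stimulation (y axis), both on log scales, for 104 tested genes, coloured by call. Trim28, Rnf114 and Rnf187 lie at the top right within the 2-fold lines, Trim30a and Rnf213 rise to the same height from lower levels, and Rnf32 and Rnf144b fall below it.

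The TRIM genes of chromosome 7 moved in both directions. The cluster as taken here holds the mouse relatives of TRIM5, TRIM6, TRIM30 and TRIM34, a group best known for restriction of retroviruses. Trim21, the cytosolic antibody receptor, and Trim68 are counted with it but lie apart on the chromosome. They start at 102557921 and 102677582, and the other genes lie between 104218793 and 104507849. Of the 12 genes 11 were tested. Of these, 5 rose, among them Trim21, 4 fell, among them Trim68, and 2 did not pass. Trim30a, which restrains NF-kB signalling through TAB2 and TAB3 (ENSMUSG00000030921, chromosome 7, 104409025 to 104465193), stood at 98.6, 98.8 and 98.5 CPM in unstimulated replicates 1 to 3 and at 600.2, 368 and 454 CPM in the stimulated ones (log2 change 2.26, SE 0.166; adjusted p = 4.8e-06 in edgeR). Next to it Trim30d (ENSMUSG00000057596, chromosome 7, 104470014 to 104507849) went from 21.7, 16.5 and 14.4 to 224, 118 and 133 CPM (log2 change 3.17, SE 0.293; adjusted p = 4.9e-05 in edgeR). All stimulated libraries lay far above the resting ones for both genes, whose upstream stretches shown above are almost the same. Without stimulated replicate 1, the highest library, the changes were 2.07 and 2.85. Trim30c was near the floor at rest, with 0.318, 0.0632 and 0.0943 CPM, and reached 6.42, 1.86 and 2.24 CPM (log2 change 4.43, SE 0.717; adjusted p = 6.2e-04 in edgeR). Its change was 5.40 without unstimulated replicate 1 and 3.67 without stimulated replicate 1. Trim30b remained below 0.5 CPM in every library and did not pass (log2 change 0.67; edgeR, adjusted p = 0.092).

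Trim5 moved the other way. It lay at 41.9, 41.4 and 44.6 CPM at rest and at 8.12, 7.13 and 7.20 CPM after stimulation, a 5.69-fold fall (log2 change -2.51, SE 0.088; adjusted p = 2.1e-08 in edgeR; ENSMUSG00000060441, chromosome 7, 104263386 to 104288094). Trim12c, a near-copy of it (ENSMUSG00000057143, chromosome 7, 104338754 to 104353362), rose from 85.2, 74.9 and 67.1 to 151, 104 and 112 CPM (log2 change 0.69, SE 0.150; adjusted p = 0.0029 in edgeR), or by 0.51 without stimulated replicate 1. The groups did not overlap for either gene, and the stretches upstream of their start sites differ at 2 of the bases compared. Trim12a, from the same subgroup, went from 88.6, 91.8 and 93.2 to 83.4, 62.1 and 67.6 CPM (log2 change -0.36, SE 0.105; adjusted p = 0.011 in edgeR). That call was lost without stimulated replicate 2 (edgeR, adjusted p = 0.052) and without both libraries of replicate 2 (0.127) or 3 (0.096), over a range of 1.5e-04 to 0.127. Copies share sequence here: of the 50-base words in the transcripts of Trim5, 23.5% also occur in those of Trim12c and 36.3% in some other gene, and 24.2% of the words of Trim12c occur in Trim5. For Trim30a and Trim30d the share was 5.98% and 6.39%. How the authors' counting treated reads that fit several genes is not given in the sources used here, so the levels of these copies are uncertain.

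Trim34a had 70.4, 73.0 and 76.2 CPM at rest and 90.6, 58.7 and 68.4 CPM after stimulation, with no call (log2 change -0.01, SE 0.143; edgeR, adjusted p = 0.939). Its stimulated libraries straddled the resting ones, and replicate 1 was again the highest. The change was -0.20 without that library (edgeR, adjusted p = 0.077). Without both libraries of replicate 1 the change was -0.23 (edgeR, adjusted p = 0.049; 0.049 to 0.983 over its alternatives). Its copy Trim34b, which shares 56.8% of its words with Trim34a and is therefore uncertain, was below 1 CPM throughout and fell by 1.14 on the log2 scale (edgeR, adjusted p = 0.012), a call lost with DESeq2 (adjusted p = 0.076), without stimulated replicate 3 (edgeR, adjusted p = 0.052) and without both libraries of replicate 1 (0.057) or 3 (0.06) (range 0.0067 to 0.076). Apart from these genes on the chromosome, Trim21 rose from 56.5, 48.9 and 45.2 to 128, 82.7 and 86.7 CPM (log2 change 0.98, SE 0.174; adjusted p = 0.0011 in edgeR), or by 0.76 without stimulated replicate 1. Trim68 beside it fell from 9.32, 11.4 and 11.4 to 5.56, 4.63 and 6.65 CPM (log2 change -0.93, SE 0.160; adjusted p = 5.6e-04 in edgeR). Trim6 was too low to test, at no more than 0.283 CPM.

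**Figure D3:**
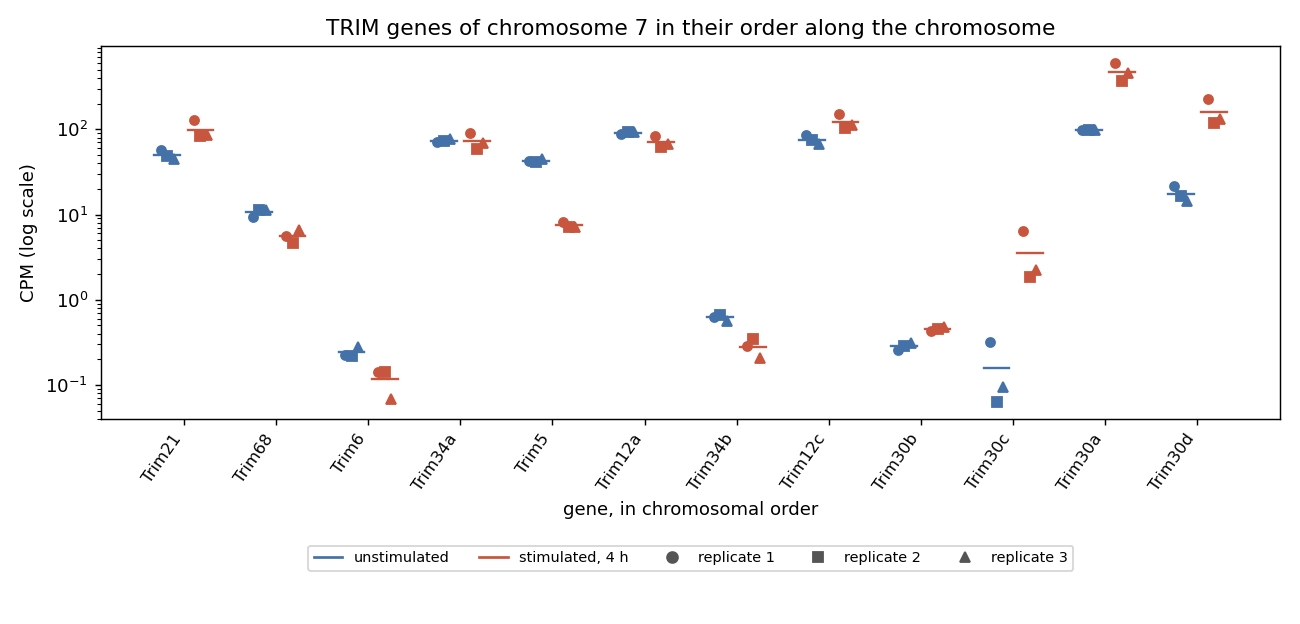
Level in CPM (y axis, log scale) of the 12 TRIM genes of the chromosome 7 cluster in chromosomal order (x axis). Blue marks are unstimulated and red marks stimulated libraries, with the marker shape giving the replicate and the bar the mean of 3. Trim30c, Trim30a and Trim30d rise at one end, and Trim5 falls between Trim34a and Trim12a, whose log2 changes were -0.01 and -0.36.

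Of 7 ligases of RIG-I and other nucleic acid sensors tested, 3 rose, 2 fell and 2 did not pass, and the rises included Trim21 of the chromosome 7 cluster. Rnf213 lay outside that list and rose too. Rnf213, a giant ATPase with a RING that ubiquitylates bacterial lipopolysaccharide and is linked to moyamoya disease in humans (ENSMUSG00000070327, chromosome 11, 119393100 to 119487418), stood at 248, 209 and 200.4 CPM at rest and at 2363, 1333 and 1355 CPM after stimulation (log2 change 2.94, SE 0.255; adjusted p = 4.4e-05 in edgeR). Per kilobase of exon its level went from 13.0 ± 1.52 to 99.7 ± 34.8 CPM, with no overlap between groups. Its rise was 2.62 without stimulated replicate 1. Trim25, which builds K63-linked chains that activate RIG-I, went from 158, 136 and 110.2 to 381, 281 and 293 CPM (log2 change 1.24, SE 0.160; adjusted p = 1.5e-04 in edgeR; 1.10 without stimulated replicate 1). The groups were again apart. Rnf135 (Riplet), another ligase for RIG-I, was scarce and fell from 1.56, 1.52 and 1.85 to 0.709, 0.737 and 0.379 CPM (log2 change -1.43, SE 0.298; adjusted p = 0.0018 in edgeR). Trim65, a ligase for MDA5, rose by 0.46 (SE 0.135, edgeR adjusted p = 0.011), a call lost without both libraries of replicate 2 (edgeR, adjusted p = 0.056; range 5.9e-04 to 0.056).

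Trim56, an antiviral ligase, had 173, 143 and 119 CPM at rest and 246, 166 and 170.1 CPM after stimulation, with overlapping groups and no call (log2 change 0.42; edgeR, adjusted p = 0.073). Without stimulated replicate 1 the change was 0.22 (edgeR, adjusted p = 0.198). It was called with DESeq2 (adjusted p = 0.019), without unstimulated replicate 1 (edgeR, adjusted p = 0.031) and without stimulated replicate 2 (0.046). Without both libraries of replicate 1 the change was 0.36 (edgeR, adjusted p = 0.0041). Over the alternatives its adjusted p ran from 2.0e-04 (edgeR with a block for replicate number) to 0.239. Trim14, a RING-less adaptor of the mitochondrial antiviral complex, went from 38.9, 38.2 and 30.5 to 31.8, 17.3 and 22.1 CPM (log2 change -0.60, SE 0.213; adjusted p = 0.034 in edgeR). The groups overlapped through stimulated replicate 1, without which the change was -0.86 (edgeR, adjusted p = 9.2e-04). The call was lost with no filter (edgeR, adjusted p = 0.136), without unstimulated replicate 1 (0.096) or 2 (0.086), without stimulated replicate 2 (0.074) or 3 (0.101), and without both libraries of replicate 2 (0.170) or 3 (0.133) (range 4.1e-04 to 0.170). Reads of Trim14 can be mixed with those of Nans, whose exons on the opposite strand cover 31.3% of its own. Beside these, 22 of 24 interferon-stimulated genes rose, none fell, and the median log2 change was 3.15. Without stimulated replicate 1 it was 2.83, with 22 that rose and 1 that fell. Oas2 and Oasl2, antiviral proteins of the oligoadenylate synthetase family, were at 1.34 ± 0.270 and 1.54 ± 0.0682 CPM at rest and reached 40.9 ± 9.08 and 49.3 ± 14.8 CPM (mean ± SD, n = 3). Their log2 changes were 4.93 and 5.00, or 4.83 and 4.79 without stimulated replicate 1.

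**Figure D4:**
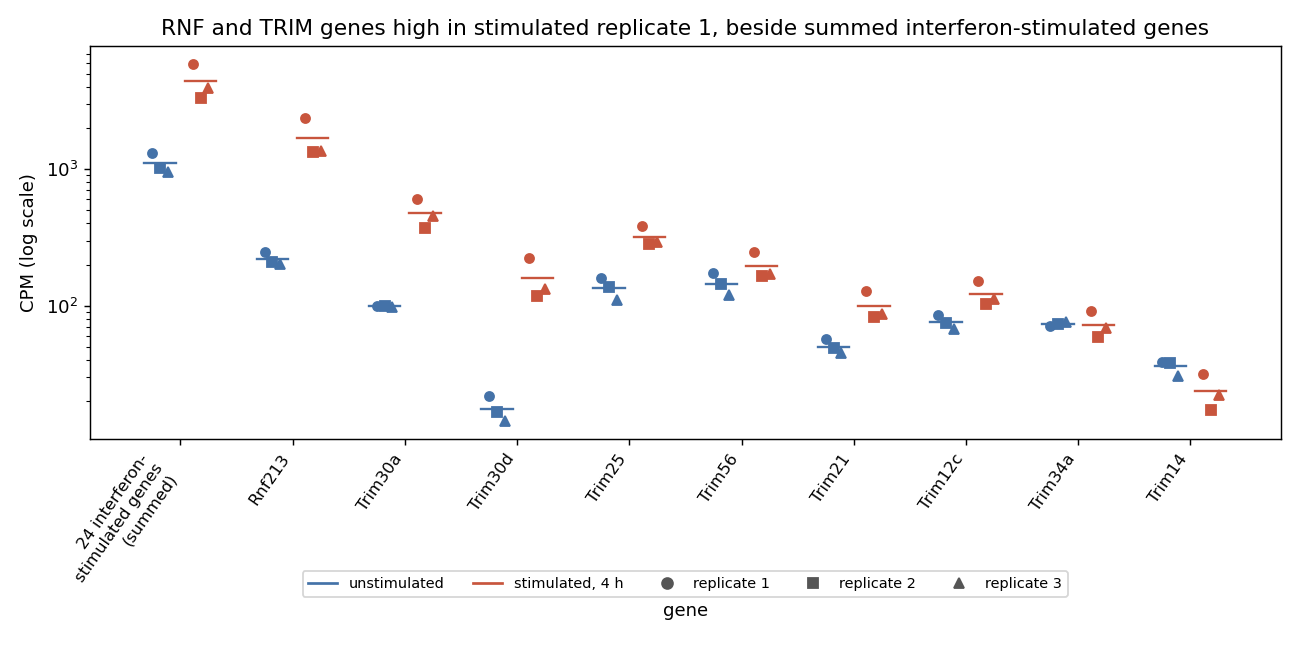
Level in CPM (y axis, log scale) of the summed 24 interferon-stimulated genes and of 9 RNF and TRIM genes (x axis) in each library, blue unstimulated and red stimulated, with shapes for replicates and bars for the mean of 3. The 9 genes are from the 12 picked because stimulated replicate 1 (red circles) exceeded 1.3 times both other stimulated libraries. Its top place for these genes was therefore fixed by the choice. Rnf122, Rnf144b and Trim30c passed the same cut and are not drawn. Every stimulated library of Rnf213 lies above rest, and the stimulated mean of Trim14 lies below rest.

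The small RNF114 family shares a RING, further zinc fingers and a ubiquitin-binding motif. Of its 4 genes 3 fell and 1 did not pass, where 39.1% of all tested genes fell. Rnf125, first described in T cell activation and a brake on RIG-I, stood at 38.2, 32.3 and 23.1 CPM in the resting libraries and at 2.73, 2.81 and 3.31 CPM in the stimulated ones (log2 change -3.40, SE 0.202; adjusted p = 6.7e-07 in edgeR). The lowest resting value was still several times the highest stimulated value. Gm2996 shares 13.0% of its words, so its level is uncertain. Rnf166 fell from 80.6, 97.0 and 108 to 28.4, 29.7 and 35.7 CPM (log2 change -1.61, SE 0.128; adjusted p = 3.8e-06 in edgeR) without overlap. Rnf138, which takes part in DNA end resection, fell less, from 68.2, 72.3 and 71.1 to 56.9, 55.3 and 51.8 CPM (log2 change -0.37, SE 0.066; adjusted p = 7.5e-04 in edgeR). Rnf114, the highest of the 4 per exon length, had 266, 244 and 234 and 306, 249.8 and 265 CPM, groups that overlapped (log2 change 0.14, SE 0.089; edgeR, adjusted p = 0.180). Scaling by library size alone put its change at -0.00033.

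Transmembrane ligases with a protease-associated domain form the group of the anergy ligase GRAIL. Of 5 tested, 4 fell and 1 rose, where 39.1% of all genes fell, with a median log2 change of -1.76, while Rnf133, Rnf148 and Rnf150 were too low to test. Rnf167, a lysosomal ligase, went from 124, 134 and 147 to 31.6, 30.6 and 31.0 CPM (log2 change -2.12, SE 0.08; adjusted p = 3.0e-08 in edgeR). Rnf13, an endolysosomal ligase tied to stress signalling of the endoplasmic reticulum, fell from 33.8, 35.9 and 37.0 to 10.1, 10.3 and 11.1 CPM (log2 change -1.76, SE 0.083; adjusted p = 1.1e-07 in edgeR). No stimulated library came near a resting one for either gene. Rnf43, which clears Frizzled receptors of the WNT pathway from the surface, was low and fell from 4.17, 2.34 and 4.02 to 1.13, 0.456 and 1.17 CPM (log2 change -1.93, SE 0.366; adjusted p = 0.0011 in edgeR). Rnf130 fell by 0.78 on the log2 scale (SE 0.092; edgeR, adjusted p = 4.7e-05). Rnf149 was the exception. It lay at 12.9, 11.5 and 12.2 CPM at rest and at 79.7, 83.9 and 81.5 CPM after stimulation, a 6.68-fold rise (log2 change 2.74, SE 0.074; adjusted p = 6.9e-09 in edgeR; ENSMUSG00000048234, chromosome 1, 39551296 to 39577405), the smallest adjusted p of all the ligase genes. The processed transcript Gm15832 shares 24.9% of its exons on the same strand.

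**Figure D5:**
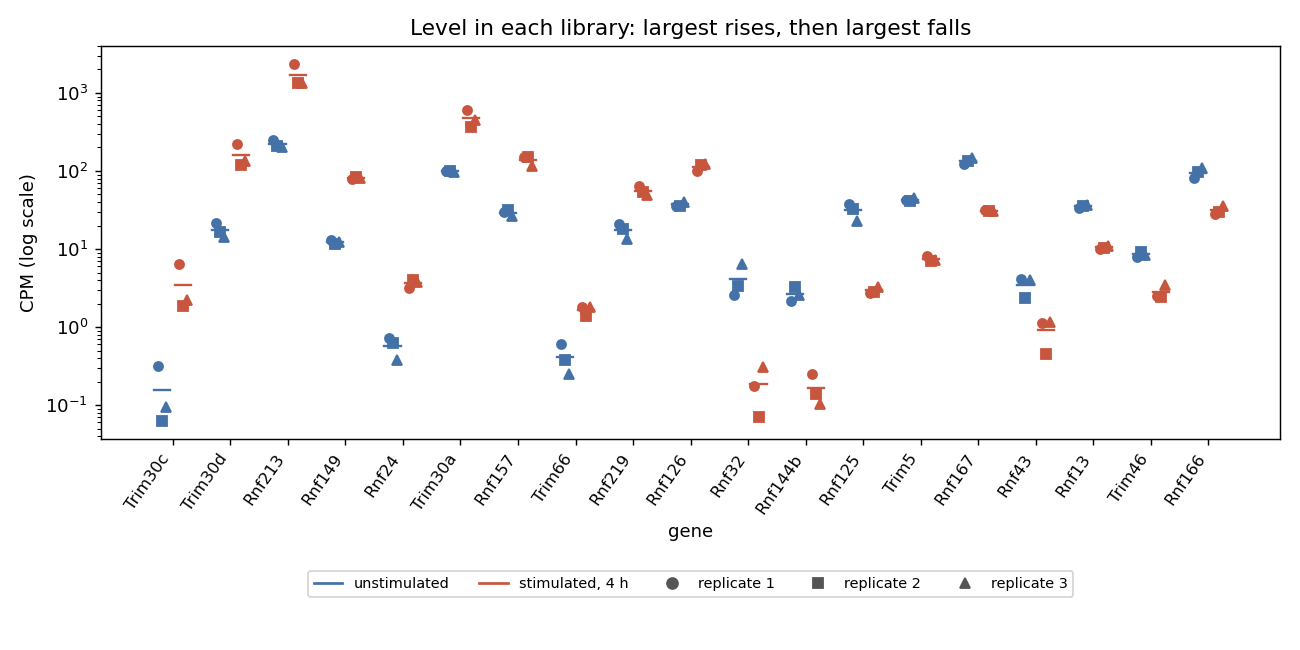
Level in CPM (y axis, log scale) in each library of 10 of the largest rises and then 9 of the largest falls (x axis) among called genes that average 1 CPM or more without overlap, blue unstimulated and red stimulated, with shapes for replicates and bars for the mean of 3. The rises run from Trim30c to Rnf126 and the falls from Rnf32 to Rnf166.

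RING-between-RING ligases pass ubiquitin through a cysteine of their own, as HECT ligases do. Of the 5 tested, 3 rose and 2 fell. Rnf19a (dorfin) rose from 80.4, 75.4 and 63.9 to 172, 176 and 149.6 CPM (log2 change 1.18, SE 0.102; adjusted p = 5.6e-06 in edgeR). Its relative Rnf19b, known from the granules of natural killer cells, had 159.6, 88.7 and 78.2 CPM at rest and 291, 258 and 308 CPM after stimulation (log2 change 1.39, SE 0.268; adjusted p = 0.0025 in edgeR), with unstimulated replicate 1 well above the other resting libraries. Rnf216, which targets Toll-like receptors, rose by 0.62 (SE 0.165, edgeR adjusted p = 0.0083), a call lost without both libraries of replicate 2 (edgeR, adjusted p = 0.074; range 7.2e-06 to 0.074). Rnf14, a ligase for stalled translation factors, fell from 94.9, 92.5 and 88.6 to 41.7, 31.8 and 40.3 CPM (log2 change -1.28, SE 0.103; adjusted p = 3.3e-06 in edgeR). Rnf144b was scarce and fell from 2.13, 3.22 and 2.58 to 0.248, 0.140 and 0.103 CPM (log2 change -3.98, SE 0.354; adjusted p = 6.8e-06 in edgeR; -4.39 without stimulated replicate 1), where the stimulated libraries were within a few reads of the floor.

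Ligases of chromatin and DNA repair changed by less than 2-fold. All 10 were tested, and 5 rose, 2 fell and 3 did not pass. Rnf4, which reads SUMO chains, rose from 135, 126 and 116 to 242, 231 and 225 CPM (log2 change 0.89, SE 0.075; adjusted p = 4.6e-06 in edgeR), while Rnf111 (arkadia), also a SUMO-targeted ligase, fell from 73.6, 75.5 and 74.9 to 58.5, 60.9 and 52.5 CPM (log2 change -0.38, SE 0.072; adjusted p = 0.001 in edgeR). Rnf20 and Rnf40 form the ligase for histone H2B. Rnf20 rose from 112, 111 and 99.3 to 167, 161 and 148 CPM (log2 change 0.56, SE 0.078; adjusted p = 1.3e-04 in edgeR), whereas Rnf40 lay at 117, 123 and 125 and 129, 126 and 125 CPM and did not pass (edgeR, adjusted p = 0.386). In the double-strand break pathway Rnf8 rose by 0.67 (SE 0.164, edgeR adjusted p = 0.0047), a call lost without both libraries of replicate 2 (edgeR, adjusted p = 0.079; range 4.1e-04 to 0.079), Rnf168 did not pass (-0.05; edgeR, adjusted p = 0.653), and Rnf169 fell by 0.52 on the log2 scale (edgeR, adjusted p = 1.3e-04). Reads of Rnf8 can be shared with Gm28043 on the same strand.

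Rnf2, the catalytic subunit of Polycomb complex PRC1 that marks histone H2A, rose from 49.3, 49.0 and 45.0 to 68.5, 66.4 and 59.4 CPM (log2 change 0.44, SE 0.077; adjusted p = 6.5e-04 in edgeR). Of 18 partners in PRC1, 9 rose, 6 fell and 3 did not pass, beside 38.4% rises and 39.1% falls over all tested genes. Pcgf6 and Kdm2b went from 11.9 ± 0.605 and 66.9 ± 8.80 CPM to 63.2 ± 3.79 and 257 ± 19.4 CPM. Pcgf1, chosen after its values were seen, fell from 19.995 ± 2.06 to 5.77 ± 0.395 CPM and Cbx7 from 236 ± 7.07 to 104 ± 5.26 CPM. Across these 4 genes edgeR's adjusted p ran from 1.7e-08 to 7.8e-07.

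Ligases of the endoplasmic reticulum membrane, which clear misfolded and regulated membrane proteins, fell in 6 of 10 tested cases and rose in 2. Over all tested genes 39.1% fell and 38.4% rose. Rnf5, a ligase of ER-associated degradation, went from 28.3, 29.3 and 30.3 to 9.75, 9.83 and 10.4 CPM (log2 change -1.55, SE 0.081; adjusted p = 2.0e-07 in edgeR), and Rnf103 from 24.1, 25.1 and 25.5 to 7.90, 8.004 and 8.82 CPM (log2 change -1.59, SE 0.088; adjusted p = 2.9e-07 in edgeR). Rnf185, the close relative of Rnf5, fell by only 0.34 (SE 0.086, edgeR adjusted p = 0.0052), lost without both libraries of replicate 2 (edgeR, adjusted p = 0.059; range 0.001 to 0.059). These groups did not overlap. Gm18101 shares 10.1% of the words of Rnf5, so the level of Rnf5 is uncertain. The sterol-linked ligases parted: Rnf145 fell from 203, 209 and 194 to 133, 130.3 and 115 CPM (log2 change -0.68, SE 0.077; adjusted p = 3.4e-05 in edgeR), and Rnf139 had 74.3, 75.4 and 68.0 and 103, 79.4 and 76.7 CPM without a call (edgeR, adjusted p = 0.07). Rnf139 was called without stimulated replicate 3 (edgeR, adjusted p = 0.032). Over the alternatives its adjusted p ran from 0.014 (edgeR with a block for replicate number) to 0.352. Rnf26, a perinuclear ligase that anchors endosomes, fell by 0.96 (SE 0.08, edgeR adjusted p = 4.4e-06), and is uncertain because 65.1% of its words occur in other genes, most in Gm49380. Rnf121 rose from 21.3, 20.8 and 21.1 to 42.3, 43.9 and 40.6 CPM (log2 change 1.00, SE 0.07; adjusted p = 1.3e-06 in edgeR). Rnf24 rose from 0.732, 0.632 and 0.377 to 3.15, 3.97 and 3.79 CPM (log2 change 2.64, SE 0.269; adjusted p = 1.7e-05 in edgeR), while Rnf122, a related ligase, fell from 10.3, 11.03 and 10.5 to 4.86, 3.55 and 3.17 CPM (log2 change -1.46, SE 0.168; adjusted p = 3.9e-05 in edgeR; -1.65 without stimulated replicate 1). Reads of Rnf24 can be mixed with those of Pank2 on the opposite strand where their exons overlap.

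Endosomal and cytosolic quality-control ligases gave 2 rises, 2 falls and 2 genes without a call. Rnf11, an adaptor of the A20 complex, rose from 25.5, 28.3 and 25.4 to 85.5, 76.5 and 66.5 CPM (log2 change 1.53, SE 0.102; adjusted p = 9.4e-07 in edgeR). Rnf126, which handles mislocalised proteins with BAG6, rose from 35.9, 35.8 and 40.4 to 99.3, 118 and 122 CPM (log2 change 1.60, SE 0.096; adjusted p = 4.8e-07 in edgeR), whereas its close paralog Rnf115 lay at 89.4, 84.2 and 90.7 and 83.3, 88.9 and 77.7 CPM and did not pass (edgeR, adjusted p = 0.330). With library size alone Rnf115 was called at -0.22 (edgeR, adjusted p = 0.018; range 0.018 to 0.919). Rnf34 fell from 31.8, 31.5 and 32.6 to 16.2, 15.6 and 16.0 CPM (log2 change -1.01, SE 0.073; adjusted p = 1.6e-06 in edgeR), and Rnf41 (Nrdp1), which sorts cytokine receptors, by 0.74 on the log2 scale (SE 0.081, edgeR adjusted p = 2.8e-05). Reads of Rnf34 can be mixed with those of Kdm2b, which rose and whose exons on the opposite strand cover 14.1% of its own.

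Several RNF genes belong to none of the groups above. Rnf44 had 172, 157 and 146 CPM at rest and 175, 187 and 167 CPM after stimulation, with overlapping groups (log2 change 0.15; edgeR, adjusted p = 0.111). It was called without unstimulated replicate 1 (edgeR, adjusted p = 0.029) and without both libraries of replicate 1 (0.033; range 0.029 to 0.879). Rnf157, a relative of Mgrn1, rose from 29.97, 31.3 and 26.9 to 149.6, 150.4 and 117 CPM (log2 change 2.24, SE 0.113; adjusted p = 1.6e-07 in edgeR). Rnf219, a ligase of the origin recognition complex also called OBI1, rose from 20.7, 18.1 and 13.5 to 63.5, 54.5 and 49.5 CPM (log2 change 1.68, SE 0.159; adjusted p = 1.7e-05 in edgeR). Each stimulated library exceeded every resting one for both genes. Rnf225, a little studied gene, rose from 0.0955, 0.316 and 0.346 to 1.17, 1.69 and 1.93 CPM (log2 change 2.64, SE 0.420; adjusted p = 3.4e-04 in edgeR). Rnf7, the RING subunit of cullin 5 ligases, rose by 0.55 (SE 0.078, edgeR adjusted p = 1.7e-04), with 27.4% of its words found in another gene. The deepest fall of all was that of Rnf32, a gene best known from testis, from 2.55, 3.35 and 6.44 to 0.177, 0.0702 and 0.310 CPM (log2 change -4.43, SE 0.530; adjusted p = 6.6e-05 in edgeR), with unstimulated replicate 3 the highest library. Rnf181 fell from 58.7, 64.2 and 68.4 to 22.9, 23.3 and 24.8 CPM (log2 change -1.43, SE 0.08; adjusted p = 3.1e-07 in edgeR). Rnf10, Rnf123 and Rnf187 were abundant and did not pass, with log2 fold changes of 0.03, 0.01 and -0.13. Rnf187 was called with library size alone (-0.27; edgeR, adjusted p = 0.003) and without unstimulated replicate 3 (0.034; range 0.003 to 0.331).

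The TIF1 co-repressors split into 2 rises and 2 falls. Trim28 (KAP1), the shared partner of KRAB zinc finger repressors, rose from 304, 310.2 and 287 to 526, 527 and 496 CPM (log2 change 0.78, SE 0.061; adjusted p = 2.9e-06 in edgeR). Trim24 and Trim33, the latter a regulator of SMAD4, fell, Trim24 from 84.2, 72.4 and 72.4 to 45.8, 41.8 and 50.9 CPM (log2 change -0.73, SE 0.095; adjusted p = 9.2e-05 in edgeR) and Trim33 from 121, 122 and 101 to 69.7, 69.0 and 65.1 CPM (log2 change -0.76, SE 0.086; adjusted p = 3.6e-05 in edgeR). None of these 3 had overlapping groups. Trim66, the RING-less member, was scarce and rose from 0.605, 0.379 and 0.251 to 1.81, 1.37 and 1.79 CPM (log2 change 2.00, SE 0.339; adjusted p = 5.2e-04 in edgeR).

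Of the 4 TRIM genes with NHL repeats, 3 rose and 1 did not pass, where 38.4% of all tested genes rose. Trim71, the let-7 target LIN41 of embryonic stem cells (ENSMUSG00000079259, chromosome 9, 114507133 to 114564369), had 2 reads at rest and 124 after stimulation, all 3 libraries of a group summed, which gives a ratio of 62.3 (95% exact counting interval 16.9 to 520.2; edgeR, adjusted p = 9.6e-06). Its stimulated libraries held 1.06, 1.54 and 1.72 CPM, so the transcript appeared in each of them at a low level. Trim32, a ligase of muscle and neural progenitors, rose by 0.49 (SE 0.081, edgeR adjusted p = 4.4e-04). Trim2 was below 1.1 CPM in every library and rose by 1.03 (SE 0.323, edgeR adjusted p = 0.016). That call was lost without unstimulated replicate 2 (edgeR, adjusted p = 0.052) or 3 (0.053), without stimulated replicate 2 (0.072) and without both libraries of replicate 2 (0.144) (range 0.011 to 0.144). Trim3 did not pass (-0.08; edgeR, adjusted p = 0.560).

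Trim59, a membrane-anchored TRIM, the fourth highest per exon length at rest, fell from 205, 228 and 237 to 80.7, 86.2 and 88.2 CPM (log2 change -1.39, SE 0.077; adjusted p = 2.8e-07 in edgeR). Trim46, which bundles microtubules in axons, fell from 7.95, 9.29 and 8.49 to 2.52, 2.42 and 3.45 CPM (log2 change -1.62, SE 0.171; adjusted p = 2.2e-05 in edgeR). Both groups were apart in all libraries. Reads of Trim46 can be mixed with those of the more abundant Krtcap2, whose exons on the opposite strand cover 6.30% of its own. Trim44, a RING-less protein that stabilises other TRIM proteins, rose from 71.2, 67.2 and 59.9 to 169, 160.2 and 148 CPM (log2 change 1.27, SE 0.086; adjusted p = 1.1e-06 in edgeR), and Trim37, which limits centrosome assembly, from 14.7, 17.6 and 14.9 to 37.9, 36.8 and 32.5 CPM (log2 change 1.18, SE 0.101; adjusted p = 5.1e-06 in edgeR). Trim16, also without a RING, fell by 0.67 on the log2 scale (SE 0.155, edgeR adjusted p = 0.0035). Of the TRIM genes placed beside the major histocompatibility complex in humans, Trim27 rose from 96.3, 97.6 and 95.3 to 151, 147 and 145 CPM (log2 change 0.61, SE 0.06; adjusted p = 1.3e-05 in edgeR), and in the mouse it lies on chromosome 13. Trim39 rose by 0.33 (SE 0.092, edgeR adjusted p = 0.0096), a call lost with library size alone (edgeR, adjusted p = 0.110) and without both libraries of replicate 2 (0.102; range 4.4e-04 to 0.110). Trim26, whose upstream stretch above holds 2 overlapping matches, had 80.6, 82.5 and 89.5 and 119, 90.0 and 94.0 CPM and did not pass (log2 change 0.26; edgeR, adjusted p = 0.051). It was called with DESeq2 (adjusted p = 0.031), RLE scaling (edgeR, adjusted p = 0.039), no filter (0.024), without unstimulated replicate 3 (0.046), without stimulated replicate 2 (0.026) or 3 (0.047), and without both libraries of replicate 3 (0.0496) (range 0.024 to 0.310).

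The remaining TRIM genes that fell did so by less than 2-fold in most cases. Trim35, Trim41, Trim23 (which carries an ARF-type GTPase domain), Trim62 and Trim8 changed by -0.77, -0.64, -0.64, -0.67 and -0.38, with edgeR adjusted p between 4.6e-05 and 0.0035. Trim45 fell by 1.02 (SE 0.159, edgeR adjusted p = 3.1e-04), and Trim7, a ligase that binds glycogenin, was near 1 CPM at rest and fell by 2.12 (SE 0.421, edgeR adjusted p = 0.0014). Trim47 rose by 1.74 (SE 0.394, edgeR adjusted p = 0.003) but stayed below 0.63 CPM in every library and shares exons with Trim65.

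The RNF genes not yet named moved by small steps in most cases. Rnf227 rose by 1.19 (SE 0.155, edgeR adjusted p = 9.3e-05), while Rnf220, Rnf25 and the spliceosome gene Rnf113a1 rose by 0.28, 0.27 and 0.38, calls lost for all 3 with library size alone and without both libraries of replicate 2 (with library size alone, edgeR, adjusted p = 0.084, 0.257 and 0.127, over ranges of 3.5e-04 to 0.114, 0.0096 to 0.257 and 0.0086 to 0.129). The call of Rnf25 was also lost without unstimulated replicate 1 (0.075) or 2 (0.075), without stimulated replicate 2 (0.067) or 3 (0.051), and without both libraries of replicate 1 (0.102) (edgeR, adjusted p). That of Rnf113a1 was also lost without unstimulated replicate 2 (0.111), without stimulated replicate 1 (0.073) or 3 (0.064), and without both libraries of replicate 3 (0.082) (edgeR, adjusted p). Rnf214, Rnf141 and Rnf6 changed by -0.77, -0.69 and -0.43, with edgeR adjusted p of 1.4e-04, 5.2e-04 and 2.4e-04. Rnf215 and Rnf146, which reads poly-ADP-ribose, changed by -0.34 and -0.30 (edgeR, adjusted p = 0.019 and 0.0052), and both calls were lost without both libraries of replicate 2 (0.121 and 0.074; ranges 0.0023 to 0.121 and 3.4e-04 to 0.074). That of Rnf215 was also lost without unstimulated replicate 2 (0.064) or 3 (0.051), without stimulated replicate 1 (0.068) and without both libraries of replicate 3 (0.07) (edgeR, adjusted p). Reads of Rnf146 can be mixed with those of Echdc1, whose exons on the opposite strand cover 70.2% of its own, so its level is uncertain. Rnf113a2, Rnf152, Rnf170, Rnf208 and Rnf223 did not pass, nor did Trim11, Trim13 and Trim36, with log2 changes between -0.48 and 0.19. Trim11 was called with library size alone (edgeR, adjusted p = 0.0088) and without unstimulated replicate 1 (0.034; range 0.0088 to 0.220). Trim13 was called with library size alone (edgeR, adjusted p = 0.032) and without stimulated replicate 2 (0.04; range 0.032 to 0.240).

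Other genes of the RING system were examined for comparison. The TRIM family genes with other names gave 2 rises among 3 tested. Pml, which organises nuclear bodies, went from 183 ± 9.44 to 423 ± 89.1 CPM (log2 change 1.21, or 1.03 without stimulated replicate 1), and the microtubule ligase Mid2 from 0.243 ± 0.211 to 2.26 ± 0.650 CPM (3.20, or 2.60 without unstimulated replicate 3 and 4.07 with limma-voom). Membrane ligases of the MARCH and ZNRF families fell in 8 of 11 cases and rose in 2, with a median of -0.73. Znrf2 and March2 fell from 231 ± 22.3 and 51.9 ± 2.25 CPM to 84.8 ± 1.44 and 22.5 ± 2.57 CPM, and the mitochondrial ligase March5 rose from 40.3 ± 3.04 to 98.9 ± 9.73 CPM. Znrf3, which acts with Rnf43 on Frizzled receptors, rose from 25.6 ± 2.71 to 39.8 ± 4.52 CPM, opposite to Rnf43.

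Of 47 further single RING ligases tested, 15 rose, 23 fell and 9 did not pass, with a median of -0.16. The hypoxia-linked ligase Siah2 rose from 8.85 ± 0.879 to 31.9 ± 0.745 CPM. The partners Brca1 and Bard1 both fell, from 57.0 ± 2.62 and 39.6 ± 3.60 CPM to 8.81 ± 1.38 and 10.4 ± 0.515 CPM. Among 19 E2 enzymes that pair with RING ligases 13 rose and 2 fell, with a median of 0.61. Beside these stand 38.4% rises and 39.1% falls over all tested genes, with a median of -0.04. Ube2g2 and Ube2e1 went from 46.9 ± 1.56 and 32.3 ± 2.47 CPM to 113 ± 2.36 and 93.0 ± 3.78 CPM. Ube2b, an E2 that serves Rnf20 and Rnf40 on histone H2B, fell from 169.6 ± 11.8 to 51.6 ± 2.88 CPM, and Ube2d2a from 126 ± 6.84 to 94.5 ± 3.94 CPM. Ube2a of the same list, named after its values were seen, had 45.2 ± 3.50 and 46.7 ± 3.84 CPM and did not pass (edgeR, adjusted p = 0.631). Across the called genes named from these lists edgeR's adjusted p ran from 6.3e-08 to 0.0017.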

How the data were processed

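Per the file header and values, the authors deposited raw counts of reads per Ensembl gene in 1 table, with 1 column per library. The submitters' processing notes list HTSeq, DESeq2, STAR 2.5.2a and the build GRCm38 without their roles. Strand setting, annotation release and the handling of multi-gene reads were not given in the sources used here. Names, exon lengths and coordinates came from GENCODE M21, which matched 48058 of 48440 identifiers and left 382 unnamed. Of the 150 annotated genes under the rule, 149 were in the table.

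edgeR 4.0.16 (R 4.3.3) was fitted to all genes with TMM scaling, filterByExpr, robust dispersions and a term for group alone. Tests were two-sided, and a Benjamini-Hochberg adjusted p under 0.05 made a call. glmTreat tested against a log2 change of 1. The filter left 13314 genes. SEs came from the quasi-likelihood F statistic. Alternatives were RLE scaling, library size alone, library sizes without the 20 most abundant genes, DESeq2 1.42.0, limma-voom (limma 3.58.1), no filter on low counts, at least 1 CPM in 3 libraries, a block for replicate number, omission of single libraries or replicate numbers, and an adjusted p of 0.01. Simulated counts for 13314 genes, 200 of them changed, returned 69% of 100 genes changed by 1.5-fold and 95% of 100 changed by 2-fold, with 4 false calls. In the data 77.5% of tested genes were called, so these shares do not give the recovery of the real test. Replicate pairs differed beyond counting noise (mean chi-square per gene of 9.41 to 37.6, where noise alone gives about 1). Intervals and floors cover counting error only.

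The genes and lists were chosen with earlier results of these data known. Named by rule were the 10 largest rises and 10 largest falls among called genes that average 1 CPM or more without overlap, the best-supported gene in each direction per role list, the 5 highest per exon length, the whole chromosome 7 TRIM cluster and RNF114 family, and 2 genes per direction of each related list. The other members were named after their values were seen. A few genes that the rule names are not reported here. Words of 50 bases were compared between GENCODE transcripts, and promoter windows came from RefSeq (GRCm38.p6), with 115 of 149 genes matched. Python 3.11.15, pandas 2.3.3 and matplotlib 3.10.9 handled tables and figures. CPM values were computed here from the deposited counts.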

Additional observations from a re-analysis of the deposited data

How the results depend on the processing

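Over the 18 alternatives the number of ligase genes that rose ran over 30 to 42 (38 as reported) and that fell over 40 to 49 (45), and beyond 2-fold over 13 to 17 and 13 to 19 (17 each), all within 1.5 times. No called gene changed sign in any alternative that tested it. Scaling by library size alone, which moved the median change of all genes from -0.043 to -0.18, kept 34 of the 38 rises and all 45 falls. Of the 22 uncalled genes 12 changed sign in at least 1 alternative, within -0.64 to 1.23. Among them, Trim34a was 0.010 with RLE scaling, 0.015 with DESeq2 and -0.23 to 0.13 on leaving out libraries or replicate numbers, and Rnf114 was -0.00033 with library size alone. The cause was not tested.

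With the replicate number as a block (replicate block), 42 genes rose and 48 fell, and 17 and 17 beyond 2-fold. The block called 7 genes not called as reported, with edgeR adjusted p of 2.0e-04 for Trim56, 0.014 for Rnf139, 0.019 for Trim11, 0.032 for Trim26, 0.037 for Trim13, 0.042 for Rnf44 and 0.047 for Rnf187. The labels do not say that a number marks shared cells, and same-numbered libraries deviated together with correlations of 0.36, 0.084 and 0.38, each library correlating best with its own number. Depth limits the 44 untested genes and those under about 1 CPM, where a few reads decide a fold change.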
